A study of Drosophila melanogaster with 2 samples.

Results

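Of the 13968 protein-coding genes of Drosophila melanogaster in the annotation, 8 genes of head patterning were examined: oc (orthodenticle), ems (empty spiracles), btd (buttonhead), slp1 and slp2 (sloppy paired), cnc (cap-n-collar), croc (crocodile) and D (Dichaete). They were taken by name and not by a cut on a measured value, but with earlier results of these data known. For each gene, every entry of the deposited peak lists was collected whose summit lay in the gene body or within 20 kb on either side. The lists came from chromatin immunoprecipitation with sequencing (ChIP-seq) of Bicoid with enhanced green fluorescent protein (eGFP) at its C-terminal end. Chromatin of whole embryos of the transgenic strain 1T-GFP, of both sexes and 0 to 24 hours of age, was sheared by sonication to fragments of 200 to 800 bp and precipitated with an anti-GFP antibody. The 2 libraries, replicates 1 and 3, had biosamples of their own and formed 1 group. The labels do not say which regulatory sequences drive the transgene, and each biosample was a pool of embryos.

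Bicoid is a homeodomain transcription factor made from maternal RNA at the anterior pole, and its protein gradient in the early embryo activates zygotic genes of the head and thorax. The head gap genes oc, ems and btd are expressed in overlapping stripes of the anterior embryo and specify head segments. The forkhead genes slp1, slp2 and croc, the bZIP gene cnc and the Sox gene D act in the same region or refine its pattern. Bicoid protein is an early product, whereas the embryos covered all of embryogenesis, so the signal of early nuclei and that of later nuclei cannot be told apart.

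The lists held 6054 entries that passed the irreproducible discovery rate (IDR) procedure, called IDR entries here, and 30000 entries each in the relaxed lists of replicate 1, replicate 3 and the pooled replicates. The pooled relaxed list is labelled as peaks and background, the input to IDR, so a relaxed entry need not be a bound site. Each entry has a signal value on the peak caller's own scale, which gave the ranks within a list, with rank 1 for the highest. That scale is not stated, so the libraries are compared by ranks, and signal values are given to describe each list. An IDR entry takes its replicate values from the strongest replicate entry that overlaps it. Signal ran from 125 to 4627 in the IDR set, from 14.6 to 2288 in replicate 1 and from 19.1 to 2358 in replicate 3. Read counts are not part of these files, and the depth of the libraries is therefore unknown. With 1 group, no second condition and no counts, no test was made, and each count stands beside the same count over all genes or all IDR entries. No expression was measured, so the labelled stage was not checked against marker genes.

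The sequences that carry the descriptions are 6 windows of the Release 6 genome from RefSeq, all on the forward strand. Capitals mark, on either strand, the words TAATCC (Bicoid and Oc), CAGGTA (Zelda), TAATTA (Antennapedia-class homeodomains), TATAAA (core promoters), TATCGATA (DREF), GGTCACAC (M1BP) and GAGAGAG (the Trithorax-like protein), none of which contains another. The first window, chrX:9687730-9687930, surrounds the strongest summit near btd and is the only window with TAATCC among the IDR summits of the 8 genes. The second, chr2L:3832424-3832624, surrounds the strongest summit between slp1 and slp2. The third, chrX:8650878-8651078, lies just upstream of oc, and the fourth, chrX:8627283-8627483, downstream of oc at a summit with no entry in replicate 1. The fifth, chr3R:13914838-13915038, is the strongest summit downstream of ems and, like the fourth, holds none of the words. The last, chr3L:14173282-14173556, is the densest run of TAATCC near any of the 8 genes and lies downstream of D.
btd summit: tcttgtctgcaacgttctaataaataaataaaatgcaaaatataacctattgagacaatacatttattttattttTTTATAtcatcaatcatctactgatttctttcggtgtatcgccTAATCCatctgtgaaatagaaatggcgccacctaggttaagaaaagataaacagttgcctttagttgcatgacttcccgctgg
slp summit: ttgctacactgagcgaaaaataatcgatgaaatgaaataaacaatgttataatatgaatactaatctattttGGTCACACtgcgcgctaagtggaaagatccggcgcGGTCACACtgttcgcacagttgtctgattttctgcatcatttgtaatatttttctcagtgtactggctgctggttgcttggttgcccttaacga
oc upstream summit: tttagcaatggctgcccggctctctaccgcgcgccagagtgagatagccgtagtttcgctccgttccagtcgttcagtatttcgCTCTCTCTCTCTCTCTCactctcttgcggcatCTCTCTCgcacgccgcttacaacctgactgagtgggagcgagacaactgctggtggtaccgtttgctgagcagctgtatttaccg
oc downstream summit: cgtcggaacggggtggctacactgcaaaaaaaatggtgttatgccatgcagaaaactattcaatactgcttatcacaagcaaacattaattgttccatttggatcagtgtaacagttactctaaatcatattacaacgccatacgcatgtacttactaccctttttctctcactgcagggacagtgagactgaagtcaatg
ems downstream summit: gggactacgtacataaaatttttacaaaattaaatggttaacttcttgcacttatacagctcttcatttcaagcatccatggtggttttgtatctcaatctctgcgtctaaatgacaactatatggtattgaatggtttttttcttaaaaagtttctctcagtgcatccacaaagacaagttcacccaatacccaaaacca
D word run: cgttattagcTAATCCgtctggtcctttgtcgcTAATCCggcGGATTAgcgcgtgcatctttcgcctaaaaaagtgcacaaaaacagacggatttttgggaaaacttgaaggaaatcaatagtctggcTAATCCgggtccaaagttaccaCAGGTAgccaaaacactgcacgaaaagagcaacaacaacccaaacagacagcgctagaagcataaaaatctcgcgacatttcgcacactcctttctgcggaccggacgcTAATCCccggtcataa

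All 8 genes had at least 1 IDR summit in the gene or within 20 kb, as did 83.1% of all protein-coding genes. Within 5 kb, 6 of the 8 had a summit, against 53.9% of all genes, and the genes without were ems and btd. The windows held 31 distinct IDR summits, since slp1 and slp2 share 2. The merged windows span 0.367 Mb and held 84.5 IDR summits per Mb (exact Poisson 95% interval 57.4 to 120, counting error only), where the chromosome arms as a whole held 45.2. Without cnc the density was 63 per Mb (37.4 to 99.6), an interval that includes the value of the arms. The arms also hold sequence outside gene windows. Per gene window, the median was 3 IDR summits for the 8 genes and 2 for all protein-coding genes. Only in cnc did a summit lie inside the gene body, with 6 there, and the other 7 genes had theirs outside the transcribed region. The nearest annotated transcription start site (TSS) belonged to the member itself for 18 of the 31 summits.

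**Figure D1:**
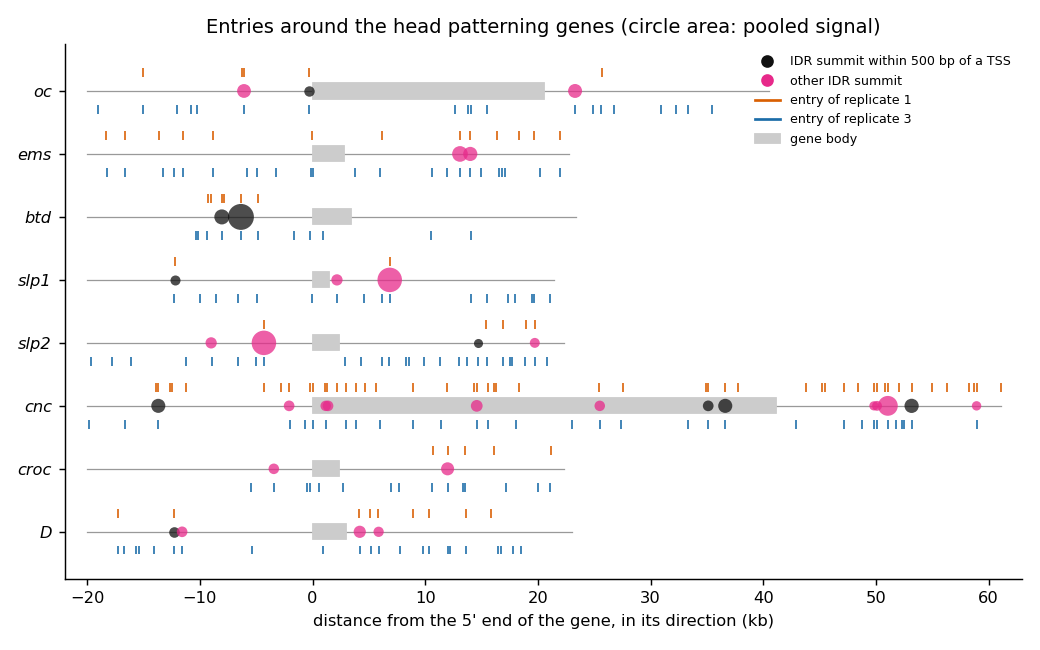
Entries around the 8 genes, by distance in kb from the 5' end of each gene in its own direction; grey boxes are gene bodies, circles are IDR summits with an area that grows with the pooled signal, and ticks are relaxed entries of replicate 1 (above) and replicate 3 (below). The largest circles stand 6356 bp upstream of btd, with a signal of 1032, and between slp1 and slp2, with a signal of 921.

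The head gap gene oc encodes a homeodomain protein that recognises the same word as Bicoid. It lies at chrX:8630159-8650681 on the reverse strand, and 3 IDR summits fell in its window. The summit 297 bp upstream of its start had a pooled signal of 167 and rank 4328, with a signal of 70.6 in replicate 1 (rank 5147) and 95.7 in replicate 3 (rank 4227). The summit 6082 bp upstream had a pooled signal of 293, with 72.7 in replicate 1 (rank 4961) and 213 in replicate 3 (rank 1428). The strongest, 2776 bp beyond the 3' end, had a pooled signal of 299 and a signal of 228 in replicate 3 (rank 1288), but no overlapping entry among the 30000 of replicate 1. The nearest summit of replicate 1 was 2357 bp away. Thus the summit at the start had similar ranks in both libraries, and the distal pair ranked far nearer the top in replicate 3. The gene is isolated, with 0 other protein-coding genes starting in its window.

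The head gap gene ems encodes another homeodomain protein, required for the antennal and intercalary segments. It lies at chr3R:13901853-13904620 on the forward strand. Its 2 IDR summits lay close together on the 3' side, 10318 and 11230 bp beyond the end of the gene. The first had a pooled signal of 377 (rank 1425), with 125 in replicate 1 (rank 2434) and 242 in replicate 3 (rank 1171). The second had a pooled signal of 308 (rank 1968), with 125 in replicate 1 (rank 2441) and 182 in replicate 3 (rank 1812). Both summits were in intergenic sequence, and the nearest TSS was that of ems in each case. The start of ems itself had relaxed entries only, with a signal of 37.6 at 44 bp in replicate 1 and of 44.4 at 161 bp in replicate 3.

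The head gap gene btd encodes a zinc-finger protein of the Sp family. It lies at chrX:9694186-9697558 on the forward strand and had 2 IDR summits, both on the 5' side. The summit 6356 bp upstream was the strongest of all 31, with a pooled signal of 1032 (rank 217), 506 in replicate 1 (rank 192) and 525 in replicate 3 (rank 275). It lay 359 bp from the TSS of the noncoding gene lncRNA:CR42657. The other, 8049 bp upstream, had a pooled signal of 347, with 173 in replicate 1 (rank 1456) and 163 in replicate 3 (rank 2161), and lay in an intron of nej, 470 bp from a TSS of that gene, which encodes the CBP acetyltransferase. Neither summit therefore had btd as its nearest gene, and both ranked somewhat nearer the top in replicate 1. The entry nearest to the btd start was a pooled relaxed entry 175 bp upstream with a signal of 86.6 (rank 8797), with a replicate 3 entry of 33.8 at 189 bp.

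The forkhead genes slp1 and slp2 are neighbours on 2L with related pair-rule and head functions, and their windows overlap. The gene slp1 lies at chr2L:3825675-3827099 and slp2 at chr2L:3836840-3839185, both on the forward strand. The strongest summit between them lay 5425 bp beyond the end of slp1 and 4316 bp upstream of slp2, and had a signal of 229 in replicate 1 (rank 888) and 701 in replicate 3 (rank 128). The other shared summit, 743 bp beyond slp1, had a pooled signal of 195 and a signal of 172 in replicate 3 (rank 1968), with no entry in replicate 1. Replicate 3 thus held both shared sites among its stronger entries, and replicate 1 held only the first. Of the summits in a single window, the one 12233 bp upstream of slp1 lay 32 bp from the TSS of CG3407 and ranked nearer the top in replicate 1, at 2626, than in replicate 3, at 10956. On the far side of slp2, summits 12306 and 17378 bp beyond its end, near the noncoding genes lncRNA:CR45451 and lncRNA:CR45450, had pooled signals of 126 and 152. The first of these had no entry in replicate 1, and the second ranked 11142 in replicate 1 and 3543 in replicate 3.

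The bZIP gene cnc specifies the labral and mandibular regions, and its longer products act in the oxidative stress response. It is the longest of the 8 genes, at chr3R:23185580-23226711 on the reverse strand, with 10 annotated transcript starts. Its window held 13 IDR summits, and 0.372% of all genes had as many. That share makes no allowance for window length, which was 81.1 kb at cnc and 41.4 to 60.5 kb at the other members. Of the 6 inside the gene, all in introns, the strongest lay 333 bp from an internal TSS, with a pooled signal of 305 (rank 1993), and ranked 2066 in replicate 1 and 2151 in replicate 3. The other 5 had pooled signals from 167 to 212. At the summit 315 bp from another internal TSS the rank was 3116 in replicate 1 and 9667 in replicate 3. The summits at 523 and 2417 bp from a TSS ranked 3979 and 3158 in replicate 1 and 4988 and 4051 in replicate 3. The last pair, 1167 and 1376 bp from the first start, have overlapping intervals with the replicate 1 ranks 9369 and 3119 by nearest summit, and share the replicate 3 entry of rank 5127.

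Outside cnc the summits belonged mostly to its neighbours. The strongest in the window, with a pooled signal of 604 (rank 650), rank 1411 in replicate 1 and rank 417 in replicate 3, lay 9924 bp beyond the 3' end, in introns of both CG46310 and the potassium channel gene Irk1. In all, 5 of the 13 had the TSS of CG46310 or Irk1 as the nearest, and 1 lay 348 bp from the TSS of CG4467. The summit 2078 bp upstream of cnc, in an untranslated region of CG4467, ranked 2043 in replicate 1 and 14071 in replicate 3. All 13 IDR entries overlapped an entry of both libraries. The site upstream of the gene was thus far nearer the top in replicate 1.

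The forkhead gene croc, a FoxC homologue needed for the anterior head skeleton, lies at chr3L:21474133-21476479 on the reverse strand. One summit lay 9639 bp beyond its 3' end, with a pooled signal of 262 (rank 2452), 54.0 in replicate 1 (rank 7098) and 199 in replicate 3 (rank 1591). The other lay 3437 bp upstream, with a pooled signal of 171 and 128 in replicate 3 (rank 2979), and had no entry in replicate 1. Both were intergenic with croc as the nearest gene, and both were sites of replicate 3 in the main.

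The Sox gene D acts in segmentation and in the brain, and its protein bends DNA. It lies at chr3L:14175610-14178620 on the reverse strand and had 4 IDR summits, the weakest set of the 8 genes by its best rank, 2931. On the 3' side, the summit 1179 bp beyond the end had a pooled signal of 229, with 117 in replicate 1 (rank 2667) and 110 in replicate 3 (rank 3573). The next, 2854 bp beyond the end, had 162 in the pooled list, 18.4 in replicate 1 (rank 23204) and 138 in replicate 3 (rank 2688). Of these neighbouring sites, the first thus ranked somewhat nearer the top in replicate 1, and the second far nearer the top in replicate 3. On the 5' side, a summit 12288 bp upstream of D lay 35 bp from the TSS of nuf, with rank 2639 in replicate 1 and rank 9001 in replicate 3. A summit 11575 bp upstream, 547 bp from the TSS of the ion channel gene nan, had a signal of 99.3 in replicate 3 (rank 4069) and no entry of its own in replicate 1, whose nearest summit was the one at nuf, 713 bp away.

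**Figure D2:**
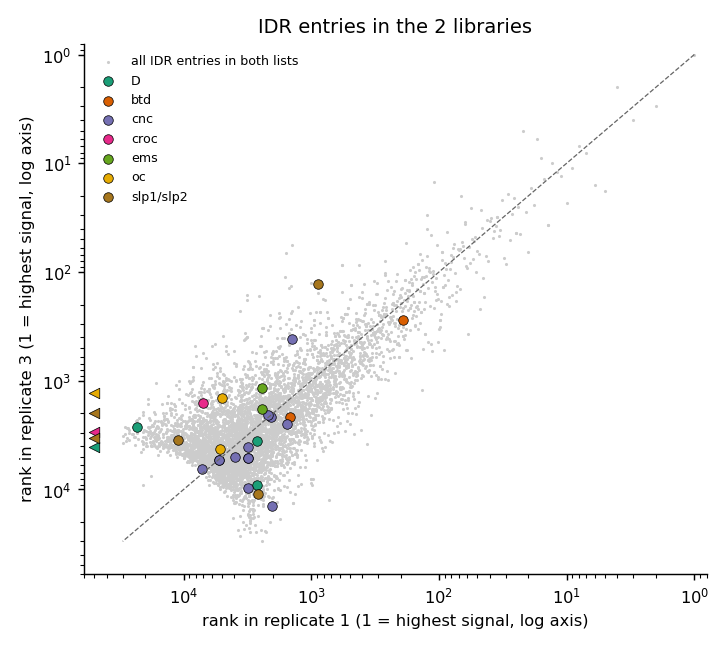
Rank of IDR entries in replicate 1 (x) and replicate 3 (y), both on log axes that run from low rank to rank 1; grey points are all IDR entries with an entry in both libraries, coloured points those of the 8 genes, and triangles at the left edge the 5 with no entry in replicate 1. The dashed line marks equal ranks, and the strongest slp site lies above it, with ranks 888 and 128.

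An IDR summit lay within 500 bp of an own TSS in 2 of 8 genes, oc and cnc, close to the 23.0% of all protein-coding genes. In the pooled relaxed list, 7 of 8 had a summit there, slp2 being the exception, against 44.0% of all genes. In replicate 3 the same count was 7 of 8, against 41.8%, and in replicate 1 it was 3 of 8, against 50.7%. The genes with a start site entry in replicate 3 and none in replicate 1 were btd, slp1, croc and D. These entries were not among the strong ones of replicate 3, but by rank near the middle of its 30000. The signals were 33.8 at btd (rank 13323), 37.2 at slp1 (rank 11841), 30.2 at croc (rank 15505) and 26.7 at D (rank 18626). The list begins at 19.1.

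Over the 31 IDR summits, 10 (32.3%) were within 500 bp of any annotated TSS, against 47.0% of the whole set. Of these 10, only 3 were at a start of a member, 1 at oc and 2 at cnc. By position, 16 of the 31 were intergenic, 12 in introns, 2 in untranslated regions and 1 in a noncoding exon. The median pooled signal of the 31 was 176, against 223 for all IDR entries. The members' summits were thus distal more often than the whole set and of lower median signal, by counts that were not tested.

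The relaxed lists differed between the libraries around these genes. More entries came from replicate 3 than from replicate 1 in 7 of the 8 windows, against 35.8% of all protein-coding genes. The counts in replicates 1 and 3 were 5 and 19 for oc, 13 and 23 for ems, and 6 and 11 for btd. They were 2 and 17 for slp1, 5 and 26 for slp2, 5 and 15 for croc, and 9 and 22 for D. The windows of slp1 and slp2 overlap, and most replicate 3 entries of slp1 are counted for slp2 as well. Their counts and shares are therefore not separate observations. The exception was cnc, with 48 and 32. The median over the 8 genes was 5.5 entries in replicate 1 and 20.5 in replicate 3, where the median over all genes was 12 and 10. A difference in favour of replicate 3 at least as large as that of slp2 was found in 0.236% of all genes, as large as that of slp1 in 0.966%, of oc in 1.23%, and of D in 1.61%. For ems and for croc it was 3.62%, and for btd 13.8%. At cnc replicate 1 had more, and in 99.2% of genes the count of replicate 3 less that of replicate 1 was at least as high. That share includes genes with more entries in replicate 1. It makes no allowance for the window of cnc, the longest of the 8 at 81.1 kb. Most of the entries counted were outside the 6054 strongest of their list, as are most of the 30000 entries of each list. Among the 6054 strongest were 21 of the 92 replicate 1 entries and 35 of the 150 of replicate 3. Both shares are slightly above that of 6054 in 30000, so they do not mark these entries as weaker than the lists. With those strongest entries alone, replicate 3 had more in 6 of the 8 windows, at slp1 with 3 against 2. The exceptions were btd, with 2 in each library, and cnc, with 11 in replicate 1 and 8 in replicate 3. No share over all genes was computed for that count, so it does not set the 8 genes apart.

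**Figure D3:**
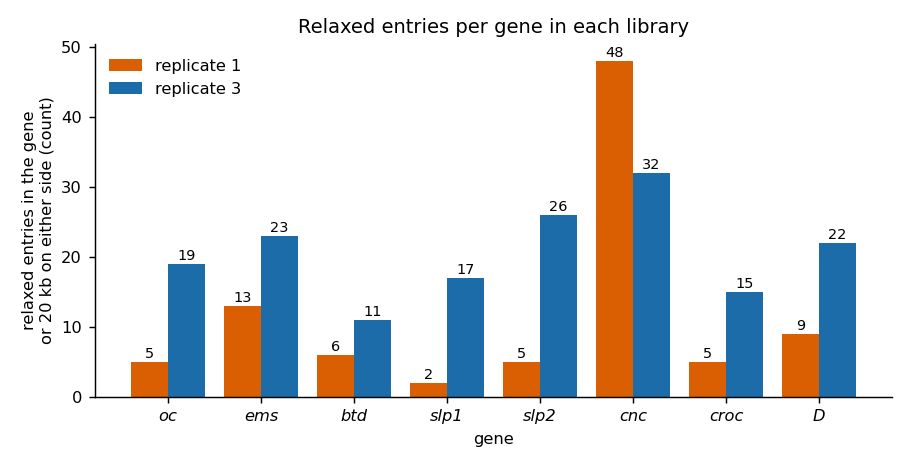
Number of relaxed entries of replicate 1 (orange) and replicate 3 (blue) with a summit in each gene or within 20 kb on either side; each bar is 1 count in 1 library, so there is no error bar. Replicate 3 has the taller bar at every gene but cnc, from 11 against 6 at btd to 26 against 5 at slp2. The windows of slp1 and slp2 overlap, so their bars share entries.

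By density the windows held 251 entries per Mb in replicate 1 (exact Poisson 95% interval 202 to 308) and 409 in replicate 3 (346 to 480), where each list has 224 per Mb over the arms. The gene cnc decided the first value: without it the windows held 44 entries of replicate 1, or 154 per Mb (112 to 207), which is below the arms, and 118 of replicate 3, or 413 per Mb (342 to 495). Of the 92 entries of replicate 1, 75.0% overlapped an entry of replicate 3, against 57.5% in the whole list. Of the 150 entries of replicate 3, 41.3% overlapped an entry of replicate 1, against 55.3%. Without cnc the shares were 88.6% in replicate 1 and 32.2% in replicate 3. With cnc the overlapping entries numbered 69 in replicate 1 and 62 in replicate 3. The unequal shares thus largely restate the unequal totals of 92 and 150. Both sets were distal, with 23.9% of the replicate 1 entries and 17.3% of the replicate 3 entries within 500 bp of a TSS, against 30.7% and 24.3% of the whole lists.

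The best entry of a window ranked nearer the top in replicate 3 in 6 of 8 genes, against 40.5% of the genes with entries in both lists. The exceptions were btd, with ranks 192 in replicate 1 and 275 in replicate 3, and D, with 2639 and 2688. The genes slp1 and slp2 share their best entry, so the same site counts for both. At oc and at D the best entries of the libraries were at different sites. Of single IDR entries, 11 of the 26 with both libraries (42.3%) ranked nearer the top in replicate 3, against 48.8% of the whole set. Matched by nearest summit, an alternative chosen after the data were seen, it was 13 of 26, against 48.9%. An entry in both libraries existed for 26 of the 31 (83.9%), against 96.4%. The 5 others (16.1%) all lacked an entry in replicate 1, against 1.85% of the whole set, and 0 lacked one in replicate 3. In the whole set of 6054 the absences were balanced, with 112 lacking replicate 1 and 107 lacking replicate 3. The 0 is thus near the share of the whole set. They lie near oc, slp1 and slp2, slp2 alone, croc and D, with ranks from 1288 to 4069 in replicate 3.

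The libraries also differed along gene density. The windows of the 8 genes hold a median of 1.5 other protein-coding gene starts, with a range of 0 to 4, where the median over all genes is 8. Among the 2016 genes with at most 3 others in the window, a limit chosen after the data were seen, 50.4% had more entries in replicate 3. Among the 11952 with 4 or more it was 33.4%. Over all genes, more entries in replicate 3 were thus commoner in sparse surroundings. Of the 8 genes only cnc, with 4 others, falls in the denser class, and cnc is also the exception in the counts. The part of gene density in the counts at the 8 genes was not tested.

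Other genes of anterior and head patterning, and paralogs or partners of the 8, were counted in the same way. Of 30 such genes, 23 (76.7%) had an IDR summit within 20 kb, below the 83.1% of all genes, and 25 had more entries in replicate 3 than in replicate 1, where 35.8% of all genes did. The 6 with the highest signal were the eye and head gene Optix (1486), the eye gene eya (941), Keap1 (930), which encodes the partner that restrains Cnc protein, bcd itself (895), the forkhead gene fkh (706) and the zinc-finger gene bowl (665). Of these, only fkh and bowl had their own TSS nearest to the summit, at 213 and 219 bp. At eya the summit was 87 bp from the TSS of Trmt6, at bcd 324 bp from that of Ama, and at Keap1 562 bp from that of kuk. Of the gap and terminal genes hb, gt, Kr, kni, tll and hkb, 3 of 6 had an IDR summit and 5 of 6 more entries in replicate 3. Of the pair-rule genes eve, ftz, hry, run, odd, prd and opa, the counts were 6 of 7 and 5 of 7. The genes hb, gt, tll, hkb and opa are in the list of 30 as well. The larger number of replicate 3 entries was therefore not found at the 8 genes alone.

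The Bicoid word TAATCC occurred within 100 bp of 1 of the 31 IDR summits (3.23%, Wilson 95% interval 0.572 to 16.2, counting error only), against 6.74% of all IDR summits. This was the btd summit printed above, which also holds TATAAA on the reverse strand. Of the other words, CAGGTA, TATCGATA and GGTCACAC were each in 1 summit window (3.23%), against 3.98%, 3.63% and 2.59% of the whole set. TAATTA was in 5 (16.1%), against 17.4%, and TATAAA in 8 (25.8%), against 35.3%. GAGAGAG was in 3 (9.68%, Wilson 95% interval 3.35 to 24.9), against 3.15%, at 1 summit each of oc, cnc and croc. The share of A and T was 62.4% ± 8.37 (SD, n = 31 summits) against 64.1% ± 7.17 (SD, n = 6054).

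Some single summits are described here by their words, picked from 7 words in 31 windows. The slp summit, 4316 bp from the nearest TSS, holds GGTCACAC 2 times, a word found in 0.374% of the IDR summits farther than 500 bp from a TSS and in 5.09% of those nearer. The summit just upstream of oc holds 7 matches of GAGAGAG, read as CTCTCTC on the printed strand, most of them overlapping in a single run, and has 44.3% A and T. The cnc summit 333 bp from an internal TSS holds TATCGATA, which is in 7.30% of the summits near a TSS. The strongest summits of oc, ems, croc and D hold none of the 7 words. Words are descriptions of these windows and do not show which protein was bound.

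TAATCC was not scarce around the genes. The windows held 169 copies, or 0.461 per kb, where the arms hold 0.367. Copies per gene ran from 18 at ems to 33 at slp2. Runs of at least 3 copies within 500 bp, merged where they overlap, numbered 7 in the windows. Of these, 0 had an IDR summit within 250 bp of the centre, against 1.14% of the 1140 such runs on the arms, where 2.18% of all bases lie that close to an IDR summit. A pooled relaxed summit lay there for 1 of the 7 (14.3%), against 7.98% on the arms, where 10.4% of all bases lie that close. With 7 runs, these counts do not set the genes apart from the arms.

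The merged run with a pooled summit is the D run printed above, at chr3L:14173292-14173546, where 5 copies lie in 255 bp. The centre was 26 bp from a pooled summit of signal 35.7 and rank 22577, and the nearest IDR summit was 663 bp away. The overlapping region had a signal of 24.9 in replicate 1 (rank 16428) and 21.0 in replicate 3 (rank 26245), so both libraries listed it among their weaker entries. Upstream of btd, 6 copies lie in a merged run, chrX:9690512-9691280. The centre of its densest 3 copies was 103 bp from a pooled relaxed summit of signal 30.6, so that it too counts as near a summit when taken unmerged, and 2781 bp from the strongest btd summit. At the summit of that peak the single copy of TAATCC was 20 bp away.

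**Figure D4:**
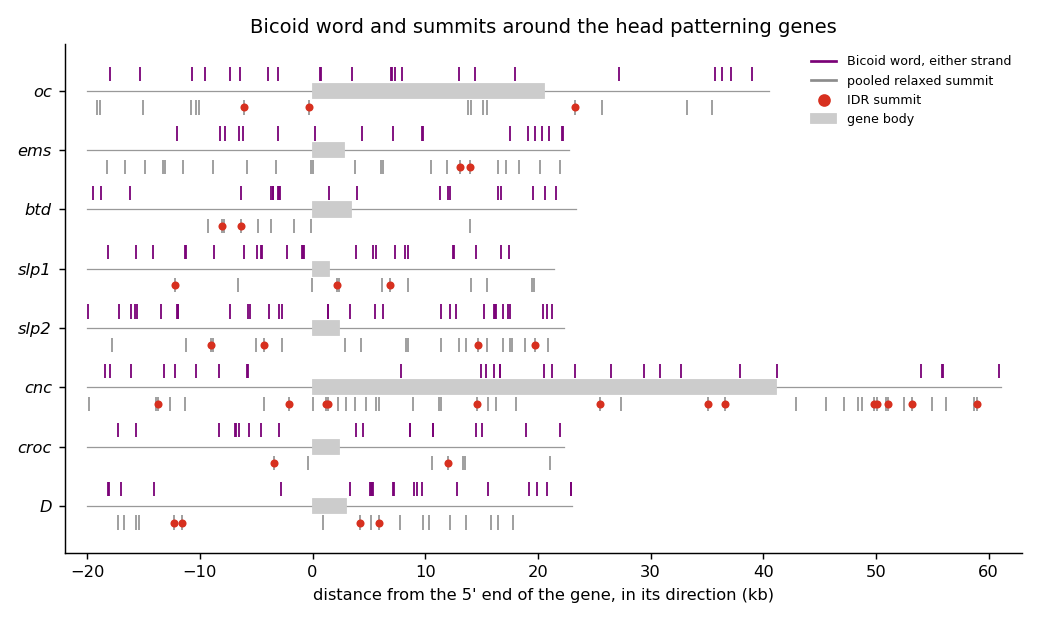
Positions of the Bicoid word on either strand (purple ticks, above each line), pooled relaxed summits (grey ticks, below) and IDR summits (red points) by distance in kb from the 5' end of each gene; grey boxes are gene bodies. Of the 31 IDR summits, 1, upstream of btd, has a copy within 100 bp.

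The window of 20 kb decides which summits are counted. Nearest to the limit on the inside were the summits 17798 bp from cnc, with a signal of 136, and 17378 bp from slp2, with a signal of 152. Just outside lay a summit 20267 bp from slp1, with a signal of 214 and 274 bp from the TSS of Reph, and a summit 20368 bp from croc, with a signal of 195. The next summits beyond the windows of ems and D were 47838 and 39266 bp away.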

How the data were processed

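The authors deposited peak lists on dm6, made from alignments and a control file per the deposited file descriptions: a relaxed list for each replicate, one for the pooled replicates, and an IDR-thresholded set derived from these. The deposited lists hold the authors' signal score per entry, on a scale that is not stated and was used to rank within a list, the authors' −log10 q value, which was not used to rank, and the authors' summit offset. For the aligner and the peak caller, names and settings were not given in the sources used here. All 6054 IDR entries are also entries of the pooled list, so pooled and IDR signals are the same. The control experiment named by the labels and the dm3 lists were not analysed here.

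Summits were placed on the Ensembl release 115 annotation of the Release 6 genome, counted from 1. An overlap was at least 1 bp. Words were searched within 100 bp of summits. Python 3.11.15, numpy 2.4.6, pandas 2.3.3, scipy 1.17.1 and matplotlib 3.10.9 were used, and the counting steps were tested on simulated data. Depth is unknown, so intervals cover counting error of entries only. The labels call the replicates biological, and samples were grouped by the labelled fusion protein. All 8 members were named, the 6 genes of the wider list with the highest signal, and the genes nearest to named summits. The members and lists were chosen with earlier results of these data known. The comparison of entry counts between the libraries, the matching of replicate entries by nearest summit, the densities without cnc, the limit on gene density and the word runs were added after the data were seen. Alternatives changed the window, the list, the overlap, the TSS distance, the word and the libraries.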

Additional observations from a re-analysis of the deposited data

How the results depend on the processing

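Of the comparisons with alternatives, 35 values stayed close to the reported one and 12 moved, and of the best ranks of single genes 19 stayed and 17 moved. The number of members with an IDR summit was 1 with the gene body alone, in place of 8. The 31 IDR summits became 6 in the gene body, 14 within 5 kb, 64 within 50 kb, 18 when the nearest TSS had to belong to the member, and 13 among the IDR entries above the median signal. With a TSS within 250 bp, 6.45% of summits were near one, against 36.5% of the whole set. Entries among the strongest of both replicates were 58.1%, against 69.2%. With TAATCC or any of 3 related words for Bicoid (TAATCT, then TAAGCC, then TAAGCT), the share was 25.8%, against 33.7%. Runs of 2 or more words, an alternative chosen after the data were seen, gave 5 of 32 with a pooled summit (15.6%, against 8.22% on the arms) in place of 1 of 7 (14.3%). Without cnc, also chosen after the data were seen, replicate 1 had 154 entries per Mb in place of 251. With the gene body alone the best rank moved from 2060 to 13655 at oc and from 1425 to 12013 at ems, and within 5 kb from 217 to 8797 at btd. Without replicate 1 or replicate 3, using as many of the strongest entries of the other library as the IDR set holds, the members with a summit were 7 to 8, the summits 21 to 35, the summits per Mb 57.3 to 95.5 (57.3 without replicate 3), the share near a TSS 20% to 42.9% and the share with TAATCC 2.86% to 4.76%. No paired analysis was possible because the libraries form 1 group. Unknown depth limits the absence of an entry in replicate 1, which cannot be told apart from a lower depth there. The cause of these shifts was not tested.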

Other observations

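The word ACACTG, which was chosen after the printed sequences were seen, is in 7 of the 31 IDR summit windows (22.6%), against 18.1% of all IDR summit windows and 7.53% of windows of the same length centred 1000 bp from them. The 7 windows are 2 each of oc, of the slp genes and of cnc, and 1 of croc. The strongest slp summit holds 4 copies, of which those at the end of each GGTCACAC overlap that word. Of the 5 summits with no entry in replicate 1, those of oc, croc and the one shared by slp1 and slp2 hold ACACTG and those of slp2 alone and D do not. It is in 17.3% of the IDR summits farther than 500 bp from a TSS and in 18.9% of those nearer.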
